A study of Drosophila melanogaster with 9 samples.

Results

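Aminoacyl-tRNA synthetases are the enzymes that join each amino acid to its tRNA. The genes described here were chosen by symbol alone: an amino acid abbreviation followed by RS, with the suffix -m for the enzyme that serves mitochondria. In tables of 6440 genes this rule found 32. The 18 without the suffix are called cytoplasmic here and the 14 with it mitochondrial. The symbol alone does not show whether a gene without the suffix also supplies mitochondria. The rule itself uses no measured value.

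The libraries came from wild-type Drosophila melanogaster embryos of 0 to 3 h, an interval in which the embryo begins to shift from maternal to zygotic control of its mRNA. Antibody fragments (Fabs) were used to precipitate RNA with bound protein from cleared embryo extract, and the RNA was sequenced (RIP-seq). The ORB2 IP used the Fab E8 against ORB2, which belongs to the CPEB proteins that bind mRNA and regulate its translation, the control IP used the Fab C1 against EGFR, and the input was RNA of the extract without a Fab. Each of the 3 groups held 3 libraries, all of the same genotype and age. The comparison of the precipitates asks which mRNAs came down with ORB2 beyond an unrelated Fab, and the comparisons with input ask how each precipitate differed from the extract. The labels do not say that replicates came from separate collections, so the p-values measure the spread between these libraries, which may be technical.

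A synthetase generally recognises 1 amino acid and the tRNAs that accept it, and the family falls into class I and class II by the fold of the catalytic domain. The mitochondrial enzymes are encoded in the nucleus, translated in the cytoplasm and imported to charge the tRNAs of the organelle's own ribosomes. In animals several cytoplasmic synthetases assemble with scaffold proteins into a multisynthetase complex, while the others act outside it. The early embryo translates from mRNAs and machinery that the mother supplied.

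The values compared below are the authors' normalized counts, a read signal per gene and library. Totals over the listed genes ran from 2625388 to 5368634 and were higher in every ORB2 IP and every control IP library than in every input. Read depth is unknown. The orb2 transcript itself was at 6661, 9610 and 8127 normalized counts in the ORB2 IP libraries, 49.7, 62.8 and 24.2 in the control IP and 57.2, 42.5 and 76.3 in input. Of the maternal and germ plasm markers, 7 of 7 were listed, with summed TPM of 1391 to 2226 in the ORB2 IP, 1172 to 1375 in the control IP and 2906 to 3756 in input. Of the early zygotic markers, 6 of 7 were listed, with summed TPM of 84.78 to 125.4, 85.03 to 187.3 and 238.1 to 309.4 in the same order. None of the 11 markers of follicle cells, hemocytes, muscle or neurons was listed, and the tables hold only genes with a TPM above 1 in every input. All 32 synthetase genes passed the filter of a mean normalized count of at least 10 in every comparison, and none was at 0 in any library.

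In the extract, cytoplasmic synthetase mRNAs stood well above the mitochondrial ones. Levels between genes are given in TPM, which scales for transcript length. The median of the gene means in input was 69.6 TPM for the cytoplasmic and 18.9 TPM for the mitochondrial enzymes. ThrRS, the threonyl enzyme, was the most abundant, at 168.7, 326.8 and 245.9 TPM in the 3 inputs, a mean of 247.1 ± 79.0 TPM (SD, n = 3). HisRS, the histidyl enzyme, followed at 207.6 ± 64.2 TPM (SD, n = 3) and LysRS, the lysyl enzyme, at 168.1 ± 44.5 TPM (SD, n = 3). ThrRS was above both in each input library, while HisRS and LysRS changed places between libraries.

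ArgRS, the arginyl enzyme, and GluProRS, the fused glutamyl and prolyl enzyme, were the lowest of the cytoplasmic genes in input. ArgRS was at 16.3, 7.17 and 1.74 TPM, a mean of 8.40 ± 7.36 TPM (SD, n = 3), and GluProRS at 6.887, 12.85 and 5.604 TPM, a mean of 8.45 ± 3.87 TPM (SD, n = 3). Their order changed between libraries. The input level of ArgRS differed 8.78-fold between libraries in normalized counts, the widest range of the 32 genes. Among the mitochondrial enzymes SerRS-m, which charges mitochondrial serine tRNAs, was highest, at 35.9, 61.3 and 46.2 TPM in input. CysRS-m, the mitochondrial cysteinyl enzyme, was lowest, at 5.47, 3.88 and 1.61 TPM. IleRS-m, the mitochondrial isoleucyl enzyme, was close to it, at 3.84 ± 2.04 TPM against 3.65 ± 1.94 TPM (SD, n = 3 each).

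The input libraries did not move together for all genes. Input replicate 2 was the highest for 25 of the 32 synthetase genes in normalized counts and input replicate 1 was the lowest for 18. ArgRS, AspRS-m and CysRS-m instead had their highest value in input replicate 1 and their lowest in input replicate 3.

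**Figure D1:**
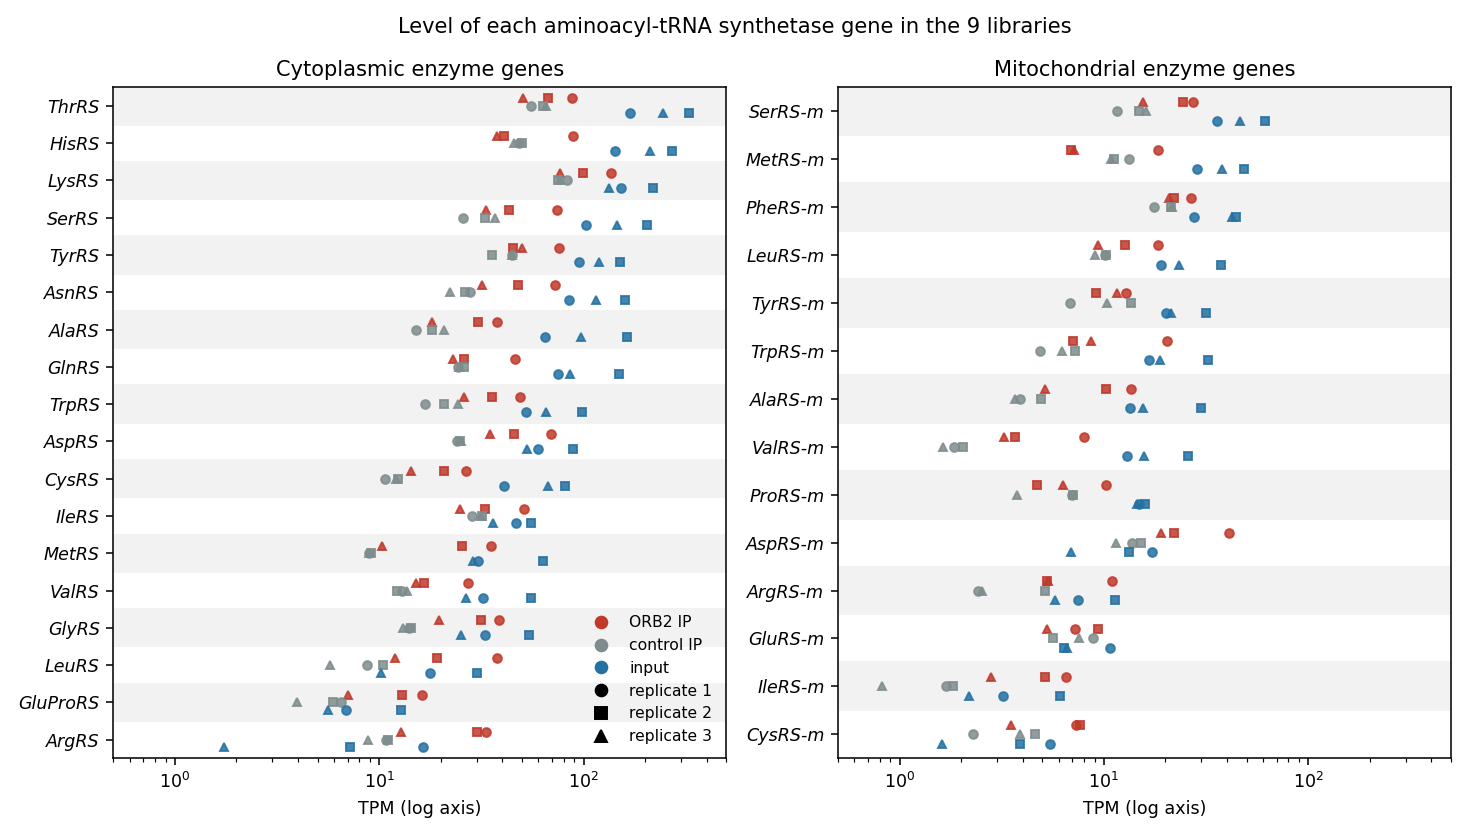
TPM of each synthetase gene on a log axis, cytoplasmic enzymes on the left and mitochondrial enzymes on the right, ordered by mean input level. Colours mark the group and shapes the replicate, 1 point per library. ThrRS is at the top of the cytoplasmic genes with a mean of 247.1 TPM in input, and ArgRS at the bottom with 8.40 TPM, where every ORB2 IP library is above its control IP libraries.

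Summed over the class, the 18 cytoplasmic genes gave 1221, 2188 and 1471 TPM in input, 1003, 670 and 498.2 TPM in the ORB2 IP and 465.5, 480.3 and 483.6 TPM in the control IP. Every precipitate was below every input, and every ORB2 IP library was above every control IP library, the third by a small margin. The 14 mitochondrial genes gave 233.3, 367.9 and 258.3 TPM in input, 228.7, 150.2 and 123.6 TPM in the ORB2 IP and 106, 124.6 and 109.1 TPM in the control IP. Here ORB2 IP replicate 3 lay within the control range. As a share of all normalized counts of listed genes, the cytoplasmic enzymes made up 0.173%, 0.113% and 0.106% of the ORB2 IP, 0.133%, 0.132% and 0.131% of the control IP and 0.302%, 0.453% and 0.350% of input. On that scale the ORB2 IP and control IP overlapped. The input levels come from bulk extract, in which the number of cells that hold an mRNA and its amount per cell cannot be told apart.

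The ratio of mitochondrial to cytoplasmic summed TPM was 0.191, 0.168 and 0.176 in input. It was 0.228, 0.224 and 0.248 in the ORB2 IP and 0.228, 0.259 and 0.226 in the control IP. Both precipitates were above all inputs and overlapped each other. The ratio was not tested, since the genes of a class are not replicates.

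**Figure D2:**
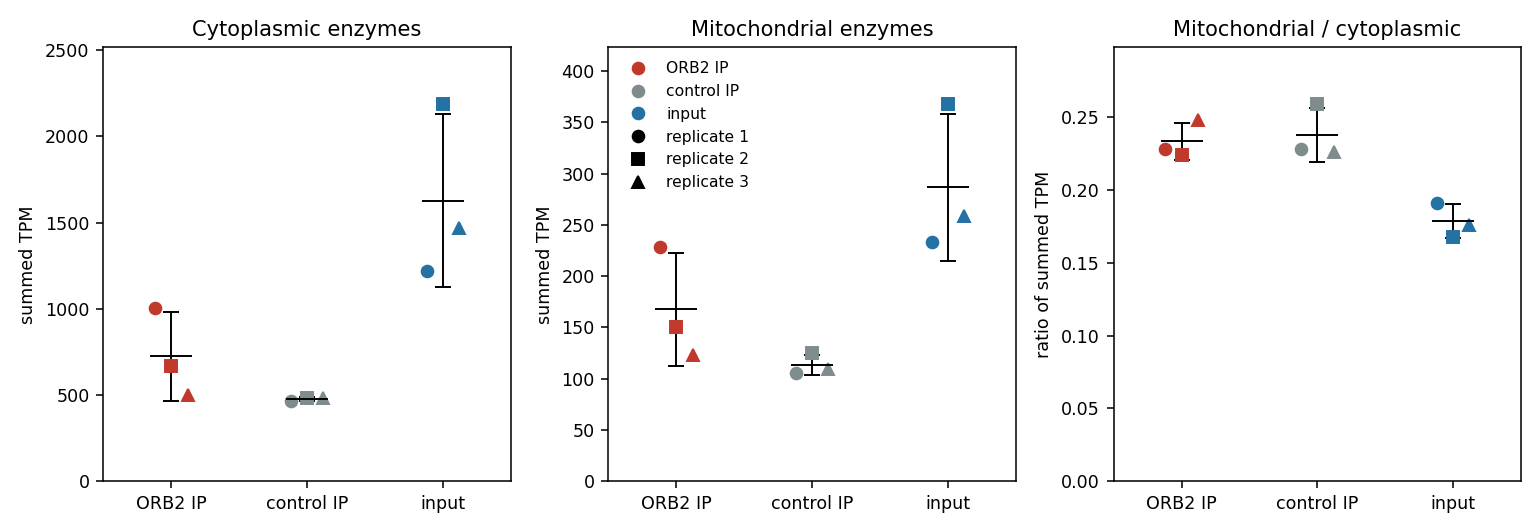
Summed TPM of the 18 cytoplasmic genes, of the 14 mitochondrial genes, and the ratio of the sums, for each library. Points are libraries, horizontal bars are group means and error bars are the SD over 3 libraries. The input ratio of 0.168 to 0.191 lies below the 0.224 to 0.259 of the precipitates.

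In the ORB2 IP against the control IP, 13 of the 32 synthetase genes were higher and none was lower. The 13 were 9 of 18 cytoplasmic genes (ArgRS, AsnRS, AspRS, CysRS, GluProRS, GlyRS, LeuRS, MetRS and TrpRS) and 4 of 14 mitochondrial genes (AlaRS-m, AspRS-m, IleRS-m and ValRS-m). Fold changes of the called genes ran from 1.43-fold for CysRS to 2.70-fold for IleRS-m. Calls required a limma p below 0.05 after Benjamini-Hochberg adjustment over all genes tested. By that rule 40.6% of the synthetase genes were higher, against 20.8% of all genes tested, and none was lower, against 21.6% of all genes tested. At an unadjusted p below 0.05, 14 were higher and 0 lower. Of the 32 fold changes 24 were above 0 (75.0%), against 50.0% of all genes tested. In the same comparison 4 of the 7 maternal and germ plasm markers were higher and 0 lower, with a median log2 fold change of 0.73. Of the 6 early zygotic markers 0 were higher and 1 was lower, with a median of -0.39. Their part in the result was not tested.

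The median log2 fold change was 0.44 over the cytoplasmic and 0.43 over the mitochondrial genes, beside 0.00 over all genes tested. The mitochondrial median was less stable: it was 0.27 (0.41 for the cytoplasmic genes) without ORB2 IP replicate 2, and 0.27 (0.40) when replicate 1 of the control IP was left out. It was also 0.27 with a filter at a mean of 50 (0.44) and with quantile normalization (0.41). In all 13 called genes the ORB2 IP and control IP libraries did not overlap. The calls were made on the same 6 libraries, so this adds no support to them. The share over all genes tested is not given here. ORB2 IP replicate 3 was the lowest ORB2 IP library in 12 of the 13, and in 20 of all 32 synthetase genes.

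IleRS-m had the largest change. It was at 56.2, 58.5 and 36.8 normalized counts in the ORB2 IP and 23.2, 22.5 and 10.6 in the control IP, with input at 27.4, 44.1 and 19.9. Every ORB2 IP library was above every control library, while 1 input lay among the ORB2 IP values. The log2 fold change was 1.43 ± 0.40 (SE, limma adjusted p = 0.0140). The gene lies on chromosome 3L, 16100280 to 16103482 on the plus strand in the BDGP6.54 annotation. Without control IP replicate 3, its lowest library, the call was lost.

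LeuRS, the leucyl enzyme and a part of the multisynthetase complex, was at 437, 293.7 and 211.9 normalized counts in the ORB2 IP, 161.4, 173.4 and 99.5 in the control IP and 202.8, 291.5 and 125.3 in input. The precipitates did not overlap, and input overlapped both. Over the control IP the log2 fold change was 1.09 ± 0.28 (SE, limma adjusted p = 0.0102), and the gene stayed called under every alternative run with a test. LeuRS lies on chromosome 2L, 3510328 to 3514656 on the minus strand.

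ValRS-m, the mitochondrial valyl enzyme, was at 75.0, 45.5 and 46.5 normalized counts in the ORB2 IP, 27.7, 27.3 and 22.8 in the control IP and 119.7, 201.9 and 156.3 in input. The 3 groups did not overlap, with input highest and the control IP lowest. Its log2 fold change over the control IP was 1.04 ± 0.32 (SE, limma adjusted p = 0.0221). It was not called in 5 of 17 alternatives, which included leaving out ORB2 IP replicate 1 or any 1 of the control IP libraries. ValRS-m lies on chromosome 3L, 8961274 to 8964769 on the minus strand.

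MetRS, the enzyme that charges both initiator and elongator methionine tRNAs of the cytoplasm, was at 354.2, 336.7 and 157.3 normalized counts in the ORB2 IP, 143, 130.9 and 133.4 in the control IP and 301.9, 533.5 and 307.1 in input. Replicate 3 of the ORB2 IP was just above the control range, and the other ORB2 IP libraries were well above it. This gave a log2 fold change of 0.97 ± 0.28 (SE, limma adjusted p = 0.0162), lost in 3 of 18 alternatives: equal totals and leaving out replicate 1 or 2 of the ORB2 IP.

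ArgRS, which in animals belongs to the multisynthetase complex, was at 206.5, 247.1 and 120.9 normalized counts in the ORB2 IP and 107, 97.9 and 81.7 in the control IP. Its inputs were at 100, 37.1 and 11.4, so every ORB2 IP library was above all other libraries. Over the control IP, its log2 fold change was 0.94 ± 0.26 (SE, limma adjusted p = 0.0146). This call was lost in 4 of 18 alternatives, among them leaving out replicate 2 of the ORB2 IP or replicate 3 of the control IP. The gene lies on chromosome X, 15841769 to 15844145 on the minus strand.

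AlaRS-m, the mitochondrial alanyl enzyme, was at 128.5, 128.5 and 75.2 normalized counts in the ORB2 IP, 59.6, 66.6 and 52.0 in the control IP and 126.8, 236.9 and 157.1 in input. The ORB2 IP lay above the control IP in every library and overlapped input at its upper end. Its log2 fold change was 0.85 ± 0.26 (SE, limma adjusted p = 0.0229). The call was lost in 6 of 18 alternatives, 4 of which left out 1 library: replicate 1 or 2 of the ORB2 IP, or replicate 1 or 3 of the control IP.

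GluProRS, a single protein that carries both the glutamyl and the prolyl activity of the cytoplasm, was at 258.3, 271.2 and 171.9 normalized counts in the ORB2 IP and 165, 134.9 and 93.8 in the control IP. Its inputs were at 108.6, 170.8 and 94.4, overlapping the control IP. All inputs were below the ORB2 IP, by about 1 count at the closest. Its change over the control IP was 0.84 ± 0.25 on the log2 scale (SE, limma adjusted p = 0.0193). With the trend on transcript length removed this value was 0.35, and the call was lost in 5 of 18 alternatives, among them leaving out replicate 1 or 2 of the ORB2 IP or replicate 3 of the control IP. The gene lies on chromosome 3R, 23952136 to 23958391 on the minus strand.

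GlyRS, the glycyl enzyme, whose human counterpart is made from 1 gene for both compartments, was at 275, 297.4 and 212.6 normalized counts in the ORB2 IP, 159.7, 145 and 139 in the control IP and 231.3, 319.8 and 188.8 in input. ORB2 IP and input overlapped, and every library of both was above the control IP. Over the control IP its log2 fold change was 0.81 ± 0.19 (SE, limma adjusted p = 0.00719), lost only with equal totals among 18 alternatives.

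The other called genes were AspRS, AspRS-m, AsnRS, TrpRS and CysRS, the enzymes for aspartate in both compartments and for asparagine, tryptophan and cysteine in the cytoplasm. Their log2 fold changes ran from 0.51 to 0.71, with limma adjusted p-values from 0.00826 for AspRS to 0.0440 for CysRS. AspRS lost its call in 1 of 18 alternatives (equal totals), AspRS-m in 4, AsnRS in 6, TrpRS in 7 and CysRS in 10. Leaving out replicate 1 of the ORB2 IP ended the calls of AspRS-m, AsnRS, TrpRS and CysRS, and leaving out its replicate 2 those of AsnRS, TrpRS and CysRS. Without control IP replicate 1 TrpRS and CysRS were lost, without replicate 2 AsnRS, TrpRS and CysRS, and without replicate 3 AspRS-m, AsnRS and CysRS. AspRS-m was at 0.31 with the length trend removed.

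Among genes that were not called, ArgRS-m, the mitochondrial arginyl enzyme, had the highest log2 fold change, 0.82 ± 0.34 (SE, limma adjusted p = 0.0725). MetRS-m, the mitochondrial methionyl enzyme, had the lowest. It was at 104, 52.0 and 61.6 normalized counts in the ORB2 IP and 121, 90.2 and 91.6 in the control IP, which overlap through ORB2 IP replicate 1. The log2 fold change was -0.52 ± 0.28 (SE, limma adjusted p = 0.152). Of the cytoplasmic genes HisRS was lowest, at 493, 300.3 and 321.7 in the ORB2 IP and 430.4, 396.6 and 380.1 in the control IP, a log2 fold change of -0.15 ± 0.20 (SE, limma adjusted p = 0.574).

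**Figure D3:**
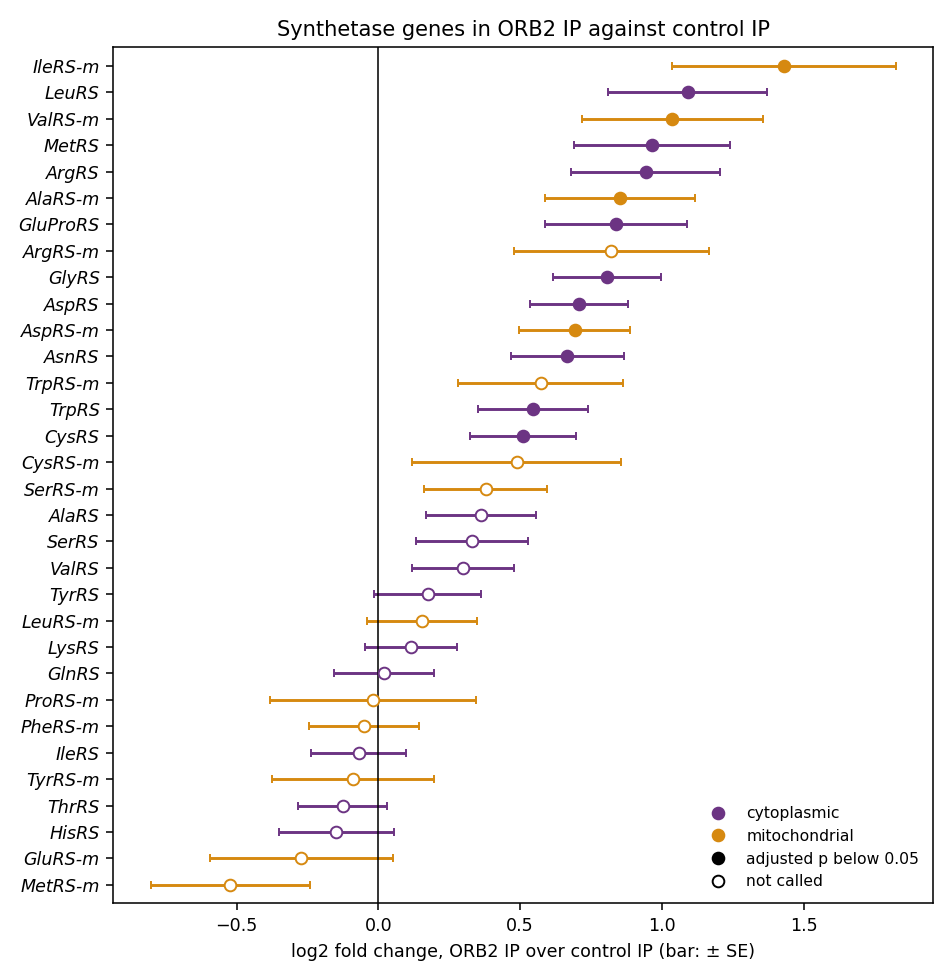
Log2 fold change of each synthetase gene in the ORB2 IP over the control IP, with bars of ± 1 SE from limma over 6 libraries. Filled points passed an adjusted p below 0.05 and open points did not. The filled points run from CysRS at 0.51 to IleRS-m at 1.43, and all are above 0.

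The number of calls depended on single libraries and on the scaling. Leaving out replicate 1 of the ORB2 IP gave 5 genes higher, and leaving out its replicate 2 gave 7. Leaving out replicate 3 of the control IP gave 5. With all 9 libraries in 1 fit the count was 7. MetRS-m was lower after quantile normalization, in which 10 genes were higher, and when replicate 1 of the ORB2 IP was left out. With libraries scaled to equal totals, LeuRS and IleRS-m stayed higher and MetRS-m was lower, while the median of all genes moved to -0.36 on the log2 scale and the class medians to 0.08 each.

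Longer transcripts were generally higher in the ORB2 IP than in the control IP. Over all 6272 tested genes with an annotated length, Spearman's rho between the log2 fold change and the length of the longest transcript was 0.53. Over the 32 synthetase genes it was 0.31. The genes share the same 6 libraries and are not independent. With the trend on length subtracted, the class medians were 0.35 for cytoplasmic and 0.26 for mitochondrial enzymes, beside -0.01 over all genes. The part of length in the result was not tested further.

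The fold change over the control IP also varied with abundance. Within the cytoplasmic genes, Spearman's rho between the ORB2 IP over control IP log2 fold change and mean input TPM was -0.74 (n = 18 genes). ThrRS and HisRS, the most abundant in input, were at -0.13 and -0.15, while ArgRS, GluProRS and LeuRS, the least abundant, were at 0.94, 0.84 and 1.09. The same coefficient was -0.43 over the mitochondrial genes (n = 14) and -0.33 over all genes tested (n = 6318). These are descriptions across genes of the same libraries.

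By membership of the multisynthetase complex, a grouping made after the values were seen, 5 of the 8 complex enzymes were higher in the ORB2 IP than in the control IP: ArgRS, AspRS, GluProRS, LeuRS and MetRS. GlnRS, IleRS and LysRS, the glutaminyl, isoleucyl and lysyl enzymes of the complex, had log2 fold changes of 0.02, -0.07 and 0.12 and were not called. The median was 0.77 over the complex enzymes and 0.35 over the 10 cytoplasmic enzymes outside it, of which 4 were called. With the trend on transcript length removed, the complex enzymes ran from -0.43 (IleRS) to 0.88 (ArgRS). The others then ran from -0.38 (HisRS) to 0.67 (TrpRS). The part of length and of input level in the gap between the medians was not tested. By fold class, 5 of 9 class I and 3 of 8 class II cytoplasmic genes were called. GluProRS, the fused enzyme, was counted in neither class. The share of all genes tested that were higher was 20.8%. No difference between these groups was tested.

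Against input, few synthetase mRNAs were enriched with ORB2 and more were depleted. In the ORB2 IP, 3 of 32 genes were higher than input (ArgRS, GluProRS and AspRS-m), against 26.0% of all genes tested, and 11 were lower, against 25.1% of all genes tested. The lower genes were 8 cytoplasmic (AlaRS, AsnRS, CysRS, GlnRS, HisRS, SerRS, ThrRS and TyrRS) and 3 mitochondrial (MetRS-m, SerRS-m and ValRS-m). The median log2 fold change was -0.55 over the cytoplasmic and -0.59 over the mitochondrial genes, beside -0.03 over all genes tested. With equal totals the counts were 1 higher and 23 lower, with the median of all genes at -0.81.

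ArgRS showed the largest rise over input. With the values given above, its log2 fold change was 2.35 ± 0.63 (SE, limma adjusted p = 0.0121), a 5.09-fold difference. It stayed called in all 18 alternatives with a test, in which the log2 fold change ran from 1.57 without input replicate 3 to 3.09 without input replicate 1. The inputs it is set against differ 8.78-fold among themselves.

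AspRS-m, the mitochondrial aspartyl enzyme, was at 478.2, 340.8 and 338.8 normalized counts in the ORB2 IP, 257.6, 253.3 and 199.5 in the control IP and 200, 129.9 and 85.2 in input. The ORB2 IP was above all other libraries, and the control IP overlapped input by less than 1 count. The log2 fold change over input was 1.54 ± 0.32 (SE, limma adjusted p = 0.00430) and over the control IP 0.69 ± 0.20 (SE, limma adjusted p = 0.0153). The gene lies on chromosome 2L, 16827078 to 16832093 on the plus strand. For GluProRS the log2 fold change over input was 0.92 ± 0.30 (SE, limma adjusted p = 0.0275). That call was lost without ORB2 IP replicate 1, without ORB2 IP replicate 2, without input replicate 3, on the TPM scale and with equal totals, where the value was 0.15. The AspRS-m call over input was lost with equal totals (0.76).

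HisRS had the lowest value among the cytoplasmic enzymes, close to AlaRS at -1.47 and ThrRS. Its inputs were at 784, 1258 and 1243 normalized counts, all above every precipitate, and the log2 fold change of the ORB2 IP over input was -1.56 ± 0.28 (SE, limma adjusted p = 0.00305). MetRS-m and ValRS-m fell most among the mitochondrial enzymes and were not separable. The inputs of MetRS-m were at 160.7, 229.4 and 226.1, above every ORB2 IP and control IP library, with a log2 fold change of -1.53 ± 0.32 (SE, limma adjusted p = 0.00421). ValRS-m was at -1.51 ± 0.32 (SE, limma adjusted p = 0.00457). ThrRS, the most abundant in input, was at 580, 591 and 516.6 in the ORB2 IP against 1112, 1816 and 1733 in input, a log2 fold change of -1.43 ± 0.24 (SE, limma adjusted p = 0.00285).

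Most synthetase mRNAs were also lower with the control Fab than in the extract. In the control IP, 1 of 32 genes was higher than input, against 33.5% of all genes tested, and 19 were lower, against 32.3% of all genes tested. The 19 were 13 of 18 cytoplasmic and 6 of 14 mitochondrial genes. Median log2 fold changes were -0.99 and -0.70, beside 0.01 over all genes tested. The gene that was higher was AspRS-m, at 0.85 ± 0.31 (SE, limma adjusted p = 0.0336), and this call was lost in 7 of 18 alternatives, among them those without replicate 1 or 2 of the control IP and without replicate 2 or 3 of the input, each with 0 genes higher. Without input replicate 1, 4 genes were higher than input: ArgRS, AspRS-m, CysRS-m and GluRS-m, the mitochondrial glutamyl enzyme. The cytoplasmic counterpart, AspRS, was lower in the same comparison. AspRS was at 212.9, 197.4 and 208.4 normalized counts in the control IP and 327.4, 413.6 and 309.9 in input, without overlap, and its log2 fold change was -0.75 ± 0.20 (SE, limma adjusted p = 0.00794).

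ValRS-m was the most depleted in the control IP, at a log2 fold change of -2.54 ± 0.27 (SE, limma adjusted p = 0.000273), 5.83-fold below input. AlaRS, the cytoplasmic alanyl enzyme, was the most depleted of its class. It was at 225.2, 237.9 and 287.3 normalized counts in the control IP and 589.4, 1256 and 949.8 in input, with no overlap, a log2 fold change of -1.83 ± 0.27 (SE, limma adjusted p = 0.000514). ArgRS had the highest value of the cytoplasmic genes, 1.40 ± 0.61 (SE), and was not called (limma adjusted p = 0.0680).

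The comparisons with input share the 3 input libraries, and the comparisons of the ORB2 IP share its 3 libraries, so the values are set side by side and are not independent. AspRS, GlyRS, MetRS, TrpRS and AlaRS-m were higher in the ORB2 IP than in the control IP and lower in the control IP than in input, and were not called between ORB2 IP and input. AsnRS, CysRS and ValRS-m were higher in the ORB2 IP than in the control IP and lower than input in both precipitates. LeuRS and IleRS-m were called only between the precipitates. ArgRS, GluProRS and AspRS-m were higher in the ORB2 IP than in both other groups, and AspRS-m was also higher in the control IP than in input. For 8 genes, among them IleRS, LysRS and PheRS-m (the mitochondrial phenylalanyl enzyme), no comparison passed the threshold.

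**Figure D4:**
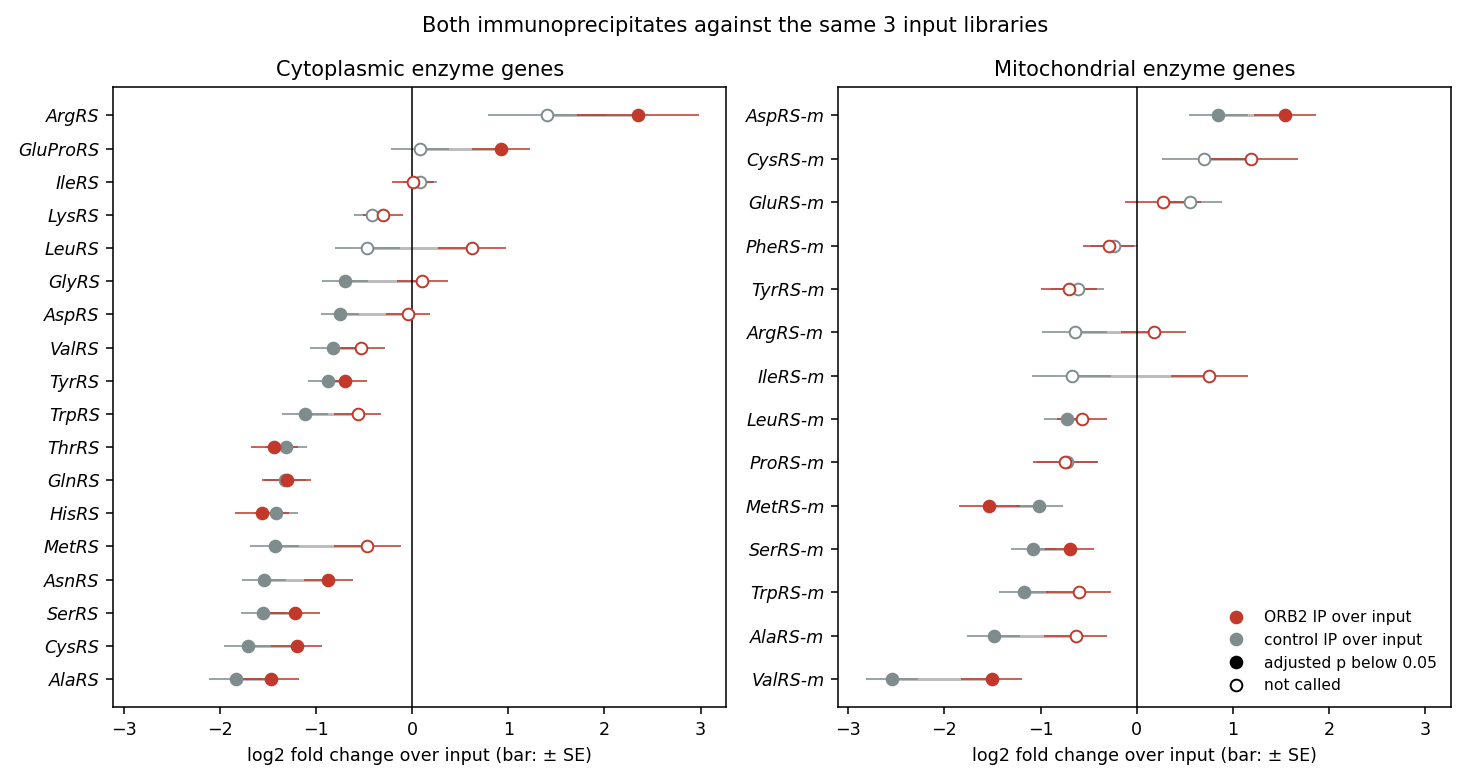
Log2 fold change over input of each synthetase gene in the ORB2 IP (red) and in the control IP (grey), with bars of ± 1 SE from limma. Both series use the same 3 inputs. Filled points passed an adjusted p below 0.05. The red points of ArgRS (2.35), AspRS-m (1.54) and GluProRS (0.92) are the filled ones to the right of 0 for the ORB2 IP, and the grey point of ValRS-m (-2.54) lies farthest to the left.

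Leaving GluProRS apart, both a cytoplasmic and a mitochondrial enzyme were listed for 11 amino acids. The cytoplasmic gene had the higher TPM in all 9 libraries for 8 of these pairs. The median fold of cytoplasmic over mitochondrial mean TPM was 3.19 in input, 3.06 in the ORB2 IP and 3.26 in the control IP. In input the cysteinyl pair was widest, at 17.2-fold, followed by the isoleucyl pair at 12.0-fold. The leucyl pair went the other way, with LeuRS at 0.727 times LeuRS-m in input, and the methionyl pair was close, at 1.07-fold. For the arginyl pair the mean fold of 1.03 averages over inputs that disagree, with log2 ratios of 1.12, -0.65 and -1.73.

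The leucyl and methionyl pairs had higher ratios in the ORB2 IP than in both other groups. The log2 ratio of LeuRS to LeuRS-m in TPM was 1.04, 0.59 and 0.35 in the ORB2 IP, against -0.22, 0.04 and -0.65 in the control IP and -0.10, -0.31 and -1.19 in input. That of MetRS to MetRS-m was 0.94, 1.87 and 0.53 in the ORB2 IP, against -0.58, -0.29 and -0.28 in the control IP and 0.09, 0.39 and -0.38 in input. All ORB2 IP libraries were above all others in both pairs. GluProRS over ProRS-m, kept apart from the 11 pairs, did the same. It was at 0.66, 1.46 and 0.16 in the ORB2 IP, with the highest other library at 0.07. GluProRS over GluRS-m overlapped input. The isoleucyl pair ran in the opposite sense, with a log2 ratio of IleRS to IleRS-m of 2.97, 2.68 and 3.15 in the ORB2 IP. These were below 4.08, 4.13 and 5.26 in the control IP and 3.86, 3.18 and 4.05 in input. The alanyl pair did likewise, at 1.49, 1.57 and 1.81 in the ORB2 IP, below 1.97, 1.88 and 2.51 in the control IP and 2.26, 2.45 and 2.64 in input. For ValRS over ValRS-m the ORB2 IP lay between the others, at 1.76, 2.18 and 2.23, against 2.81, 2.58 and 3.07 in the control IP and 1.32, 1.10 and 0.76 in input. These pairs were singled out after their values were seen, and the ratios were not tested.

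Set side by side, the log2 fold changes of the ORB2 IP over the control IP were 1.09 for LeuRS and 0.15 for LeuRS-m, 0.97 for MetRS and -0.52 for MetRS-m, and -0.07 for IleRS and 1.43 for IleRS-m. For valine they were 0.30 for ValRS and 1.04 for ValRS-m. The aspartyl enzymes were alike in size, at 0.71 and 0.69. In this comparison the mitochondrial gene had the higher value in 5 of 11 pairs. A pair called in opposite directions was seen only for AspRS and AspRS-m in the control IP against input.

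**Figure D5:**
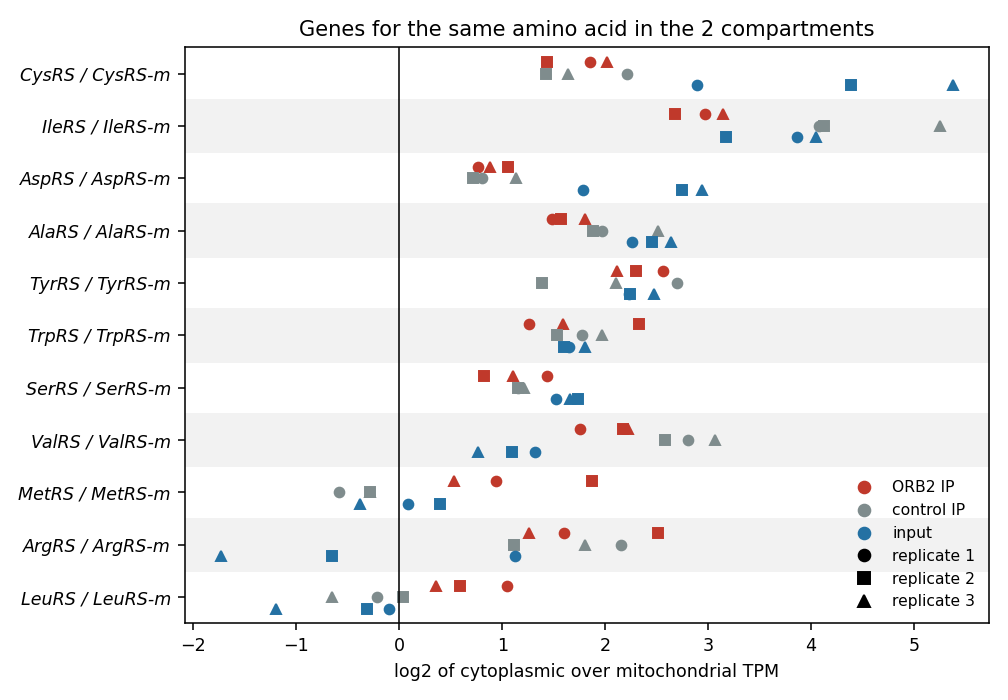
Log2 of cytoplasmic over mitochondrial TPM for the 11 pairs of genes with the same amino acid name, 1 point per library. Colours mark groups and shapes replicates. Points right of 0 have the cytoplasmic gene higher. LeuRS over LeuRS-m and MetRS over MetRS-m are above 0 in all 3 ORB2 IP libraries, at 0.35 to 1.04 and 0.53 to 1.87.

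Other genes of tRNA charging and its use were counted in the same fit, where 20.8% of all genes tested were higher and 21.6% lower in the ORB2 IP than in the control IP. Of 3 further synthetase subunit or synthetase-like genes with other symbol forms, beta-PheRS, a subunit of the cytoplasmic phenylalanyl enzyme, was higher in the ORB2 IP. It was at 171.1, 121.3 and 119.3 normalized counts against 86.1, 73.7 and 72.3 in the control IP, without overlap, a log2 fold change of 0.80 ± 0.22 (SE, limma adjusted p = 0.0144). None of the 3 scaffold genes of the multisynthetase complex was called in that comparison. Against input, 2 were lower in the ORB2 IP and all 3 in the control IP, where 25.1% and 32.3% of all genes tested were lower. Of the 3 genes for GatCAB, the amidotransferase that corrects mischarged glutamine tRNA in mitochondria, GatC was lower in the ORB2 IP than in the control IP (log2 fold change -0.98 ± 0.33 (SE), limma adjusted p = 0.0343).

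Of 6 cytoplasmic elongation factor genes, eEF1delta and eEF5 were lower in the ORB2 IP than in the control IP, at log2 fold changes of -1.15 and -0.84 (limma adjusted p = 0.00157 and 0.0363), and none was higher. Of 8 mitochondrial translation factor genes, mEFG1, an elongation factor, was higher at 0.87 and mIF3, an initiation factor, was lower at -0.51 (limma adjusted p = 0.0181 and 0.0484). None of the 3 genes listed for the sensing of uncharged tRNA was called. Among ribosomal protein genes, 1 of 85 cytoplasmic ones was higher and 3 were lower, with a median log2 fold change of 0.35. Of 72 mitochondrial ribosomal protein genes 1 was higher and 34 were lower, with a median of -0.55. The mitochondrial synthetases, with 4 of 14 higher, 0 lower and a median of 0.43, lay on the other side of 0. With the length trend removed the median of the mitochondrial synthetases was 0.26. No such value is given here for the ribosomal protein genes. The difference between these gene families, and the part of length in it, was not tested.

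In the BDGP6.54 annotation, 2 of the 32 synthetase genes share exonic sequence with another gene on the same strand and 14 with a gene on the opposite strand. How the authors' quantification used strand is not given in the sources used here. Of the 17 genes with no overlap, 7 were higher in the ORB2 IP than in the control IP and 0 were lower, against 20.8% and 21.6% of all genes tested. Of the 13 called genes, IleRS-m, AlaRS-m, AspRS-m, GluProRS and CysRS overlap an exon on the opposite strand, and AspRS overlaps exons on both strands.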

How the data were processed

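The authors deposited TPM, and separately normalized counts (a signal of unstated scale), per gene and library. DESeq2 1.42.1, Salmon 1.9.1 and Trim Galore 0.6.5 are named in the submitters' processing notes, with no role for any. The build and annotation behind the tables were not given in the sources used here. Whole reads were not recovered from the normalized counts, so no count model was run and no counting interval is given. The lowest positive value per library was 0.700 to 5.70.

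Each comparison was fitted on its 6 libraries in R 4.3.3 with limma 3.58.1, using a mean-variance trend and moderated variances. The scale was log2(normalized count + 1), which understates the change of low genes. Genes entered at a mean of at least 10. Tests were two-sided with Benjamini-Hochberg adjustment over all genes. Fits were tested on simulated data. Summaries used Python 3.11.15, pandas 2.3.3 and scipy 1.17.1. Gene models came from Ensembl 115 (BDGP6.54), which matched 32 of 32 synthetase genes and 6394 of 6440 genes.

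Same-numbered ORB2 IP and control IP libraries deviated together (correlations 0.102, 0.230 and 0.276, all above 0.1), so by that rule the numbers pair these libraries, from the data and not from the labels. The tests reported carry no block, and the fit with a replicate block was an alternative. Against input they did not all pass 0.1 (from -0.190 to 0.182 for the ORB2 IP, from 0.0418 to 0.184 for the control IP).

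The genes and lists were chosen with earlier results of these data known. Library values were given for the up to 8 called genes of largest change between the precipitates, the extremes of each class in each comparison, pairs called in opposite directions, and the most and least abundant genes. List genes were named when called between the precipitates. Groupings by complex and fold class, and the pairs and other genes described beyond this rule, were chosen after the values were seen.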

Additional observations from a re-analysis of the deposited data

How the results depend on the processing

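Alternatives covered the pseudocount, the filter, 3 further scalings, TPM in place of normalized counts, 1 fit over all libraries, no trend, a replicate block, the length trend and each library left out. Depth is unknown, so limits for low genes such as CysRS-m and IleRS-m cannot be set.

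Between the ORB2 IP and the control IP, the number of synthetase genes called higher was 2 with equal totals and 7 with all 9 libraries in 1 fit, and ran from 5 to 14 with 1 library left out. The number called lower was 1 with equal totals and 1 with quantile normalization, and ran from 0 to 1 with 1 library left out; this gene was MetRS-m in each case. The cytoplasmic median was 0.08 with equal totals, 0.658 with TPM and a pseudocount of 1, and 0.69 with TPM and 0.1. The mitochondrial median was 0.081, 0.611 and 0.687 under the same settings and 0.257 with the length trend removed. The median of all genes moved to -0.355 with equal totals and to 0.24 and 0.254 with TPM, by the scaling itself.

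Against input with equal totals, the ORB2 IP had 1 gene higher and 23 lower. Its cytoplasmic median was -1.325 with equal totals, -0.921 and -0.946 with TPM, and its mitochondrial median -1.363, -0.93 and -0.986. The all-gene medians were -0.81, -0.408 and -0.433. IleRS, at 0.01 and not called, was lower with equal totals (-0.767, limma adjusted p = 0.0348).

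For the control IP against input, the number higher was 0 with equal totals and with TPM under either pseudocount, 2 with all 9 libraries and from 0 to 4 with 1 library left out. The cytoplasmic median was -1.413 with equal totals and -1.614 and -1.646 with TPM, and the mitochondrial median -1.109, -1.221 and -1.336. The all-gene medians were -0.407, -0.591 and -0.639.

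The replicate block kept all 13 genes called between the paired precipitates. Against input, where not all correlations passed 0.1, it gave 2 genes higher in the control IP in place of 1 (ArgRS added). With the block SerRS-m was not called between ORB2 IP and input (limma adjusted p = 0.0584). The block changed no other call of a synthetase gene. Apart from the scalings, the causes of these changes were not tested.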
